A study of Saccharomyces cerevisiae with 68 samples.

Results

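The soluble and membrane-bound proteases of the yeast vacuole, together with the small inhibitor proteins that bind the main endoproteinases, are described here through 8 genes of Saccharomyces cerevisiae. They were chosen by name, as the rows of PEP4 (YPL154C), PRB1 (YEL060C), PRC1 (YMR297W), CPS1 (YJL172W), LAP4 (YKL103C), APE3 (YBR286W), PAI3 (YMR174C) and PBI2 (YNL015W) among the 6297 reading frames of the deposited table. Their RNA was measured on 68 arrays that each compared a pair of RNA samples in different dyes. Of these, 60 arrays followed 5 strains for 5, 15, 30, 45, 60 and 120 min after a shift to 37C, each time against RNA of the same strain at 25C, and 8 arrays compared 4 strains with DBY8268 while all cultures grew at 25C.

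The strains were K9, M22, RM11-1a and YPS163, which the series calls non-laboratory strains, and DBY8268, the strain it uses as the S288c reference. As background, K9 is a sake strain, M22 and RM11-1a derive from vineyard isolates, and YPS163 was isolated from oak. The arrays of a series name a shared 25C RNA of their strain, apart from 3 arrays (M22 at 30 and 45 min and RM11-1a at 30 min, all of series 2), and the YPS163 array of 60 min in series 2 is labelled a technical repeat. All cultures grew in rich medium (YPD), and heat was given by mixing the culture with warmed medium. Each strain is 1 line, and each strain and time had 2 arrays, called series 1 and series 2 below. The labels call them duplicates and name no separate cultures behind them. The p-values therefore cover the spread among these arrays, which may be technical. K9 is also the strain whose series both carried the dyes in the same channels. The dyes were swapped between the series of the other 4 strains.

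The vacuole is the main degradative compartment of yeast, and its hydrolases are made as inactive precursors that mature on arrival. Proteinase A, the aspartyl protease encoded by PEP4, stands at the head of that activation, and proteinase B, the serine protease encoded by PRB1, completes the maturation of several others. Carboxypeptidases and aminopeptidases trim peptides from either end. The cytosol holds inhibitors that block the 2 endoproteinases should they leave the vacuole, and vacuolar proteolysis is best known for recycling proteins during starvation and autophagy.

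An array gave a value for between 3418 and 6098 reading frames in the time courses (median 5304) and between 4587 and 5659 at 25C. The number of arrays, rather than a count of molecules, limits the precision. Across genes the 2 arrays of a group correlated with r between 0.29 and 0.95 in the 30 heat groups. In YPS163 r was 0.46 at 60 min and 0.44 at 120 min. In RM11-1a it lay between 0.29 and 0.38 at 45, 60 and 120 min. Genes with a known pattern were read to check the labels. HSP104, a heat-induced disaggregase gene, stood between 5.35 and 7.50 on the 10 arrays of 15 min, and LEU2 and URA3, which RM11-1a lacks, stood at −5.57 and −6.43 there at 25C, with 1 array each. A response below is the deposited log ratio of heat over the strain's own 25C RNA, read as log2, since the log base is not stated, and a gene was called at an adjusted p under 0.05.

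At 15 min of heat the RNA of 6 of the 7 testable genes was higher than at 25C, and the increase was largest for PBI2 (9.72-fold on the mean of the 5 strains), LAP4 (8.88-fold) and PRB1 (8.05-fold). PEP4 and PRC1 rose less, with 3.28-fold and 2.84-fold at 15 min. CPS1 rose 1.56-fold at that time, and APE3 was the member called below its 25C level later in the course. PAI3 lacked a value for K9 at 5 min and so could not enter the test over all strains and times.

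On the mean of the strains, 5 of 7 genes were higher at 5 min, where 31.1% of the 4360 genes tested were called higher. At 15 min 6 of 7 were higher, against 38.1% of all genes, and at 30 min 5 of 7, against 40.6%. The counts were 5 of 7 at 45 min (33.7% of all genes), 4 of 7 at 60 min (24.3%) and 5 of 7 at 120 min (30.7%). The median response of the 7 genes was 1.71 at 15 min and 0.73 at 60 min, whereas the median of all genes was −0.01 and 0.02. APE3 was the member called lower at 45, 60 and 120 min, times at which 20.4%, 22.6% and 20.9% of all genes were called lower. Without K9 series 2 no gene was called lower at these times, since APE3 then lacked K9 values at 45 min and was not tested, and without DBY8268 series 2 none was at 45 min. In bulk cultures, less RNA per cell and fewer cells that make it cannot be told apart.

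**Figure D1:**
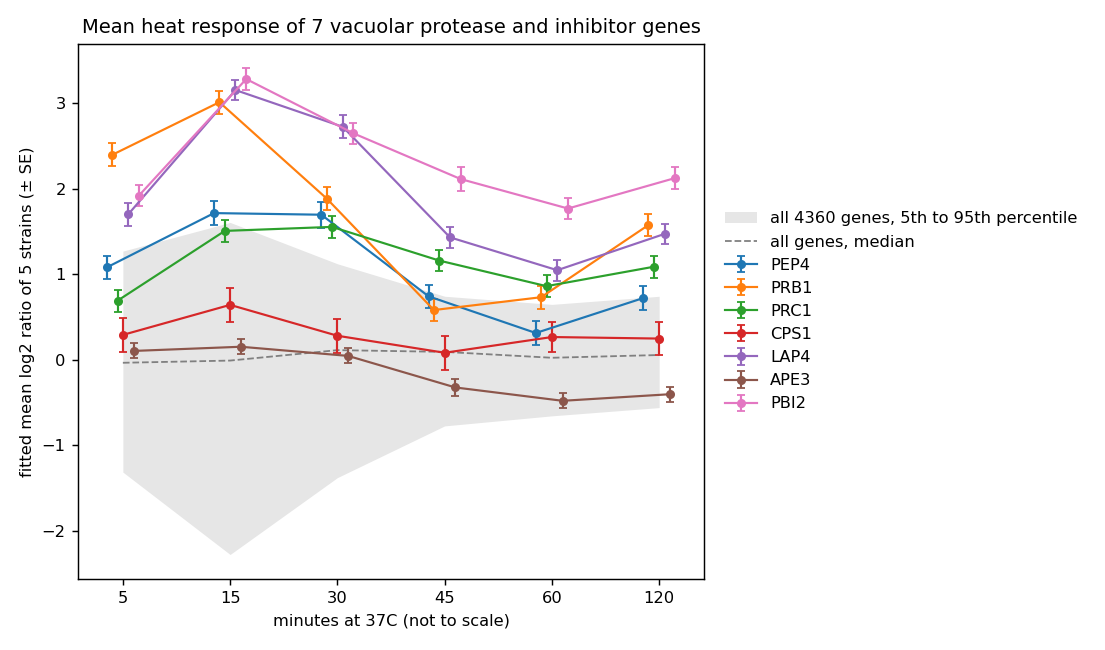
Fitted mean log2 response of the 5 strains (vertical axis, with its SE) at 6 times after the shift to 37C (horizontal axis, not to scale) for the 7 genes tested; the grey band spans the 5th to 95th percentile of all 4360 genes and the dashed line is their median. PBI2 and LAP4 lie above the band at all 6 times, PRB1 at all but 45 min, PEP4 at 15 and 30 min and PRC1 from 30 min on. APE3 lies below 0 from 45 min on.

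PEP4 encodes the proteinase that starts the activation of the other hydrolases, and it was called higher in each of the 5 strains at 5, 15 and 30 min. At 5 min its log2 ratio ranged over the 10 arrays from 0.48 to 1.96 with a median of 0.99. At 15 min the range was 1.04 to 2.40, and at 30 min, over 9 arrays, 0.97 to 2.44. Every array was above 0 at these times, and the means of 1.08, 1.71 and 1.69 were called (SE 0.14, 0.14 and 0.15; limma adjusted p = 2.04e-08, 1.72e-13 and 4.8e-12). At 60 min the arrays ran from −0.76 to 0.85, 3 of the 10 were below 0, and the mean of 0.31 was not called (adjusted p = 0.0616). With each series as a block that mean was 0.29 and was called (adjusted p = 0.000529), and the strains differed (adjusted p = 0.0342). The block takes the offset between the series of a strain out of the error. Here and below its p-values therefore cover only the spread within a series, and not that between series. At 120 min all arrays were again above 0, and the mean was 0.72 (SE 0.14, adjusted p = 5.25e-05). In the fit without the block no difference between strains was called for PEP4 at any of the 6 times. The fitted responses at 60 min still ran from −0.06 in YPS163 to 0.705 in DBY8268. With 2 arrays per strain, the lack of a call does not show that the strains were alike. In YPS163, series 2 was above series 1 at all 5 times with both values, and series 1 minus series 2 had a median of −1.40. This order was not particular to PEP4. In YPS163 it held at all 6 times for PRB1, LAP4, APE3 and PBI2, at 5 of 6 for PRC1 and at 2 of 5 for PAI3.

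PRB1 encodes proteinase B, and its mean of 2.39 at 5 min was the highest of the 7 genes tested (SE 0.13, adjusted p = 1.59e-17). At 5 min the arrays of M22 stood at 3.38 and 3.20 and those of DBY8268 at 3.50 and 2.86, while K9 had 2.22 and 1.47, RM11-1a 2.05 and 1.66, and YPS163 1.12 and 2.53. M22 and DBY8268 thus lay above all arrays of the other 3 strains. The strains differed by the F test at that time (adjusted p = 0.0113), a call made for 8.44% of all genes, and this was kept in 16 of 21 alternatives. At 15 min the 10 arrays closed up between 2.69 and 3.55, and no strain difference was called. By 45 min they ran from −0.16 to 1.22, and the mean was 0.58 (SE 0.13, adjusted p = 0.000431). With each series as a block the strains also differed at 45 and 60 min (adjusted p = 0.0283 and 0.0016).

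At 120 min the strains parted again. PRB1 stood at 2.94 and 3.32 in YPS163, against 0.14 and 0.70 in K9, 1.99 and 1.24 in M22, 1.00 and 0.98 in RM11-1a and 2.14 and 1.34 in DBY8268. Both YPS163 arrays lay above the 8 others, and both K9 arrays lay below the 8 others. The strains differed (adjusted p = 0.000176), YPS163 exceeded the mean of the other 4 by 1.95 (SE 0.33, adjusted p = 0.000169), and K9 was below the mean of its other 4 by −1.48 (SE 0.34, adjusted p = 0.0141). Among the 7 arrays of 120 min with the array code prefix that the YPS163 arrays carry, its 2 were also the highest. The YPS163 difference stayed called in all 21 alternatives run, with values from 1.45 to 2.34, and the K9 difference in 14 of 20.

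The higher PRB1 response of YPS163 appeared between the last times measured. From 60 to 120 min PRB1 gained 2.62 in YPS163 (SE 0.15, adjusted p = 0.000169), a call made for 7.99% of 4931 genes. In YPS163 4 of the 8 members were called higher over that span, PRB1 with LAP4 at 1.23, PEP4 at 1.19 and PRC1 at 0.53 (SE 0.20, 0.16 and 0.14, adjusted p = 0.0104, 0.00469 and 0.0497). Both YPS163 arrays of 60 min carried another array code prefix than both of 120 min, so prefix and time cannot be told apart there. The series 2 array of 60 min is also the one labelled a technical repeat. The fits of change held no prefix term. The change of PRB1 was −0.06 in K9 and 0.50 in M22, neither called, and 0.72 in RM11-1a and 0.27 in DBY8268, also not called. The PRB1 change differed between strains (F test, adjusted p = 0.014), a call that 1.87% of all genes reached. That call was kept in 10 of 12 alternatives. The change from 15 to 120 min had an adjusted p of 0.0359 (1.31% of all genes were called), and it was lost in 8 of 12 alternatives, each without 1 series (adjusted p up to 0.117). From 15 to 120 min the change of PRB1 lay between −2.41 and −1.48 in the 4 other strains and was 0.04 in YPS163 (SE 0.24, adjusted p = 0.921).

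**Figure D2:**
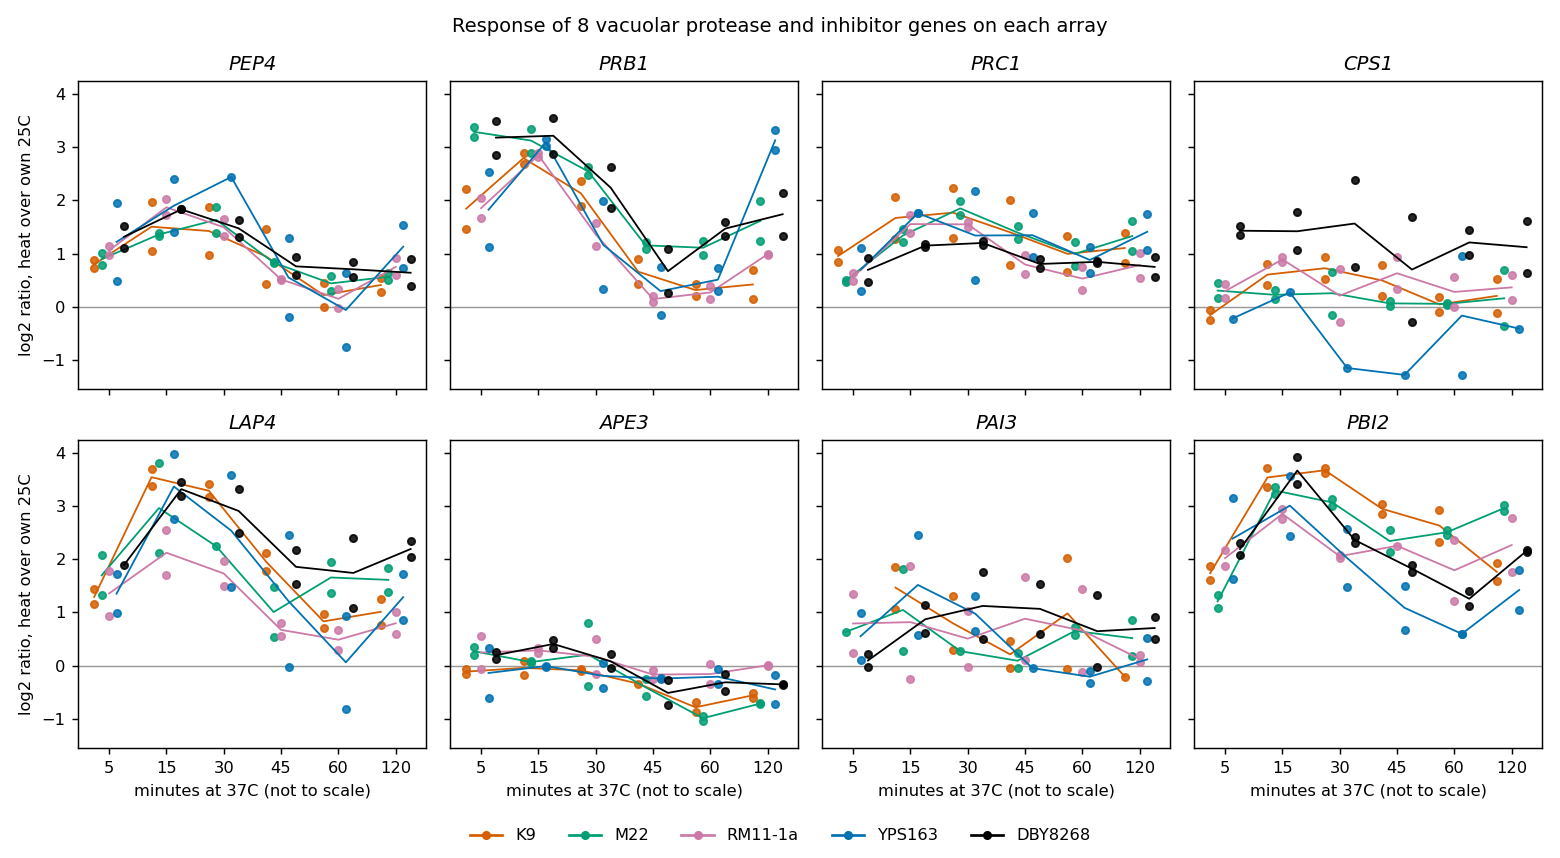
Log2 ratio of heat over the strain's own 25C RNA (vertical axis) at 6 times (horizontal axis, not to scale) for each of the 8 genes; points are arrays, lines join the means of each strain, and within a time the strains run from K9 to DBY8268. In the PRB1 panel the YPS163 points at 120 min stand at 2.94 and 3.32, above all others, and in the CPS1 panel DBY8268 lies highest at 5 and 15 min.

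PRC1 encodes carboxypeptidase Y, the serine carboxypeptidase that is the textbook cargo of vacuolar sorting. Its log2 ratio was above 0 on all 60 arrays. At 15 min it ranged from 1.12 to 2.07 with a median of 1.43, at 30 min from 0.51 to 2.24, and at 120 min from 0.55 to 1.75. The means were 0.69, 1.50, 1.55, 1.16, 0.86 and 1.09 from 5 to 120 min (SE 0.13 each), all called, with adjusted p between 4.26e-13 and 1.32e-05. From 15 to 120 min the change was −0.40 (SE 0.12, adjusted p = 0.0143), a call kept in 10 of 12 alternatives. No strain difference was called at any time, save at 45 min with each series as a block (adjusted p = 0.0456).

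CPS1 encodes carboxypeptidase S, which is anchored in the membrane and released inside the vacuole. In DBY8268 it stood at 1.51 and 1.35 at 5 min, against −0.06 and −0.25 in K9, 0.44 and 0.17 in M22, 0.42 and 0.17 in RM11-1a and −0.22 on the single YPS163 array with a value. Both DBY8268 arrays lay above all others, as they did at 15 min, where DBY8268 had 1.78 and 1.06. Taken alone, DBY8268 was called higher at 5, 15, 30 and 60 min, with fitted responses of 1.43, 1.42, 1.56 and 1.21 (SE 0.39, adjusted p between 0.00234 and 0.0333). At these times 17%, 21.5%, 13.6% and 5.83% of all genes were called higher in DBY8268. Without its series 1 the DBY8268 values were 1.27, 0.98, 0.67 and 0.89 and none was called, and the call of 60 min was lost in 7 of the 20 alternatives run. The mean of the 5 strains was called at 15 min, at 0.64 (SE 0.20, adjusted p = 0.00414), with all 9 arrays above 0. With each series as a block it was called at 5, 30, 45 and 120 min too, at 0.56, 0.55, 0.35 and 0.51, and the strains also differed at 5 and 60 min (adjusted p = 0.0253 and 0.0326).

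A strain difference for CPS1 was called at 30 min (adjusted p = 0.0216). The single YPS163 array stood at −1.15, K9 had 0.93 and 0.52, M22 −0.15 and 0.66, RM11-1a 0.71 and −0.29, and DBY8268 2.38 and 0.75. YPS163 lay below all other arrays, while the lower DBY8268 array fell among those of K9. DBY8268 exceeded the mean of the other 4 by 1.61 (SE 0.45, adjusted p = 0.0269), and by 0.63 (adjusted p = 0.737) without its series 1. YPS163 was below its other 4 by −1.92 (SE 0.60, adjusted p = 0.0423), a value that became −0.71 (adjusted p = 0.325) with the series as a block, and its call was lost in 12 of 20 alternatives. CPS1 had a value on 1 of the 6 arrays of YPS163 series 2, so its YPS163 values rest mostly on series 1. The YPS163 arrays of 30 min also carried an array code prefix that no other strain had at that time.

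LAP4 encodes aminopeptidase I, which reaches the vacuole from the cytosol in its own transport vesicles instead of through the secretory pathway. Its arrays ranged at 15 min from 1.70 to 3.98 with a median of 3.28, and at 30 min, over 9 arrays, from 1.48 to 3.59. At 60 min they ran from −0.82 to 2.39. The mean was 3.15 at 15 min (SE 0.12, adjusted p = 5.53e-22), 2.72 at 30 min and 1.05 at 60 min (SE 0.12, adjusted p = 1.54e-08), and it was called at all 6 times.

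Among the 7 members tested, which leave out PAI3, LAP4 was the one with a called dye effect. That call was made for 716 of the 4360 genes tested. Arrays with the strain's heated RNA in channel 2 read lower by −0.91 (SE 0.12, adjusted p = 4.27e-06) than those with it in channel 1, and K9 was read in channel 2 only. At 15 min K9 stood at 3.70 and 3.38 as deposited, which the fit set to 4.00, RM11-1a at 1.70 and 2.54, M22 at 2.11 and 3.81, YPS163 at 2.75 and 3.98, and DBY8268 at 3.18 and 3.45. The arrays of the strains overlapped, apart from RM11-1a, whose 2 arrays lay below all K9, YPS163 and DBY8268 arrays. Strain differences were called at 15, 30, 45 and 60 min (adjusted p = 0.00597, 0.00274, 0.00644 and 0.00279) with the dye term in the fit. Without it the adjusted p were 0.362, 0.29, 0.432 and 0.163, and none was called. With each series as a block in its place all were called again, as was 120 min (adjusted p = 0.00589). K9 exceeded the other 4 by 1.06, 1.28 and 1.22 at 15, 30 and 45 min, RM11-1a was below its other 4 by −1.29 and −1.24 at 15 and 30 min, and YPS163 was below by −1.23 at 60 min, all in the fit with the dye term. With the block the K9 differences at 15 and 45 min were 0.60 and 0.76 and were not called (adjusted p = 0.114 and 0.0583). The K9 call of 15 min was lost in 10 of 18 alternatives, that of 45 min in 6 of 18, and each RM11-1a call in 6 of 19. Both RM11-1a arrays of 15 min carried an array code prefix that no other strain had at that time, so that prefix and strain cannot be told apart there. The same held for both YPS163 arrays of 60 min, which stood at −0.82 and 0.94, the latter labelled a technical repeat. That 0.94 lay between the K9 arrays, at 0.70 and 0.96, and the YPS163 call was lost in 2 of 19 alternatives.

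APE3 encodes aminopeptidase Y, and its RNA changed little and late. At 15 min the arrays lay between −0.18 and 0.48, and the mean of 0.15 was not called (SE 0.09, adjusted p = 0.118). At 60 min they lay between −1.04 and 0.03, with 9 of 10 below 0, and at 120 min between −0.73 and 0.01. The mean fell by 0.33 at 45 min, by 0.48 at 60 min (SE 0.09, adjusted p = 3.01e-05) and by 0.40 at 120 min (SE 0.09, adjusted p = 0.00027). M22 was lowest at 60 min, with −1.04 and −0.94, below the other 8 arrays, and it was under the mean of the other 4 by −0.64 (SE 0.22, adjusted p = 0.0396), a call lost in 6 of 20 alternatives. The F test over strains was not called for APE3 at any time, save at 60 min with each series as a block (adjusted p = 0.0159).

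PAI3 encodes the inhibitor of proteinase A, a small cytosolic protein that folds upon binding the enzyme. Its arrays disagreed more than those of any other member, with a median SD of 0.62 between the 2 arrays of a group, against 0.13 for APE3 and 0.19 for PBI2. At 15 min it stood at 1.07 and 1.86 in K9, 0.27 and 1.82 in M22, −0.25 and 1.88 in RM11-1a, 2.45 and 0.58 in YPS163 and 1.13 and 0.61 in DBY8268. The strains overlapped, and 9 of 10 arrays were above 0. In the fit with no filter on missing values the mean was 1.19 at 15 min (SE 0.23, limma adjusted p = 2.7e-05), 0.82 at 30 min (SE 0.25, adjusted p = 0.00524) and 0.59 at 60 min (adjusted p = 0.0348). At 30 min 8 of 9 arrays were above 0, but at 60 min 5 of 10 were, with a median of 0.27. It was 0.44 at 45 min (adjusted p = 0.136) and 0.29 at 120 min (adjusted p = 0.341), neither of them called.

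PBI2 encodes the inhibitor of proteinase B, which also acts with thioredoxin in vacuole fusion. It was above 0 on all 59 arrays with a value, and at 15 min it ranged from 2.44 to 3.92 with a median of 3.35. The mean was 3.28 at 15 min (SE 0.13, adjusted p = 1.85e-22), 1.77 at 60 min and 2.12 at 120 min, and it was the highest of the 7 genes at 45, 60 and 120 min. At 5 min the strains differed only with each series as a block (adjusted p = 0.0165).

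The PBI2 response at 60 min differed between strains. At that time K9 stood at 2.33 and 2.93, M22 at 2.55 and 2.46, RM11-1a at 2.36 and 1.22, YPS163 at 0.59 and 0.60, and DBY8268 at 1.40 and 1.11. Both YPS163 arrays lay below the 8 others. The strains differed (adjusted p = 0.000687), and this call was kept in all 20 alternatives run. YPS163 was below the other 4 by −1.46 (SE 0.31, adjusted p = 0.003), K9 was above its other 4 by 1.15 (SE 0.32, adjusted p = 0.04) and M22 above by 0.92 (SE 0.31, adjusted p = 0.0353). The K9 call was lost in 11 of 19 alternatives and the M22 call in 7 of 20, with an M22 value of 0.38 (adjusted p = 0.486) where the arrays of each time were scaled to 1 spread. The change of PBI2 between times was not called as different between strains for any pair of times tested (adjusted p between 0.117 and 0.208). Both YPS163 arrays of 60 min carried another array code prefix than the other 8, so prefix and strain cannot be told apart within that time. With the prefix as a covariate over all times the YPS163 difference was −1.81 (adjusted p = 0.0173), and without the array labelled a technical repeat it was −1.41 (adjusted p = 0.0608).

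At 30 min PBI2 stood at 3.62 and 3.72 in K9, above every other array, and at 1.47 and 2.57 in YPS163. K9 exceeded the other 4 by 1.35 (SE 0.32, adjusted p = 0.00688), and the strains differed (adjusted p = 0.00319). At 45 min the F test was called as well (adjusted p = 0.00737), with both K9 arrays, 2.85 and 3.04, above all others, and both YPS163 arrays, 0.67 and 1.50, below all others. At 120 min M22 had 3.01 and 2.91, above all others, and exceeded the other 4 by 1.05 (SE 0.31, adjusted p = 0.0263), a call lost in 10 of 20 alternatives, with values down to 0.55. The strain difference of that time had an adjusted p of 0.0447, and it was kept in 9 of 20 alternatives.

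Counted over members, strain differences were called for 1 of 7 genes at 5 min, where 8.44% of all genes were called, 1 of 7 at 15 min (25.4%), 4 of 7 at 30 min (36.9%), 2 of 7 at 45 min (22%), 2 of 7 at 60 min (24%) and 2 of 7 at 120 min (17.5%). At 5 min the gene was PRB1, at 15 min LAP4, at 30 min PRB1, CPS1, LAP4 and PBI2, at 45 and 60 min LAP4 and PBI2, and at 120 min PRB1 and PBI2. The call for PRB1 at 30 min had an adjusted p of 0.0309 and was lost in 8 of 21 alternatives. With each series as a block, which covers only the spread within a series, the counts were 3 at 5 min, 4 at 45 min and 6 at 60 min. No share over all genes is given for that fit or for those below that leave out a series. Their counts therefore cannot be set against the shares above. Single series moved these counts too. Without DBY8268 series 1 or M22 series 1 they were 0 at 5 and 15 min, 2 at 30 min and 1 at 45, 60 and 120 min, and without RM11-1a series 1 they were 2 at 30 min and 1 at 45, 60 and 120 min. Without M22 series 2 the count was 0 at 5 min, and without YPS163 series 2 it was 2 at 5 and 15 min and 4 at 45 and 60 min. Without YPS163 series 1 it was 2 at 5 min and 4 at 60 min. At 120 min it was also 1 without K9 series 1 or 2, DBY8268 series 2 or M22 series 2, and without K9 series 1 it was 1 at 45 min. A response is set against RNA of the same strain at 25C and is no measure of the level itself.

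Of the 210 comparisons of a strain with the mean of the other 4, 19 were called. No share over all genes was pooled over strains and times, so this total has no background to be read against. The shares over all genes that follow are only for the contrasts and directions with a called member. In K9 1 of 7 genes was higher at 15 min (1.95% of all genes), 2 at 30 min (3.03%), 2 at 45 min (1.61%) and 1 at 60 min (1.42%), and 1 was lower at 120 min (0.826%). In M22 1 was higher and 1 lower at 60 min (11.3% and 7.66%), and 1 was higher at 120 min (7.59%). In RM11-1a 1 was lower at 15 min (2.11%) and 1 at 30 min (4.08%). In YPS163 1 was lower at 30 min (2.91%), 2 at 45 min (3.53%) and 2 at 60 min (5.23%), and 1 was higher at 120 min (5.44%). In DBY8268 1 was higher at 30 min (2.11%). The 2 YPS163 genes of 45 min were PBI2, at −1.28 (SE 0.32, adjusted p = 0.0103), and CPS1, at −1.83 (SE 0.60, adjusted p = 0.0465), which was −0.63 and not called with the block and was lost in 14 of 20 alternatives. The K9 call for PBI2 at 45 min was lost in 13 of 19.

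**Figure D3:**
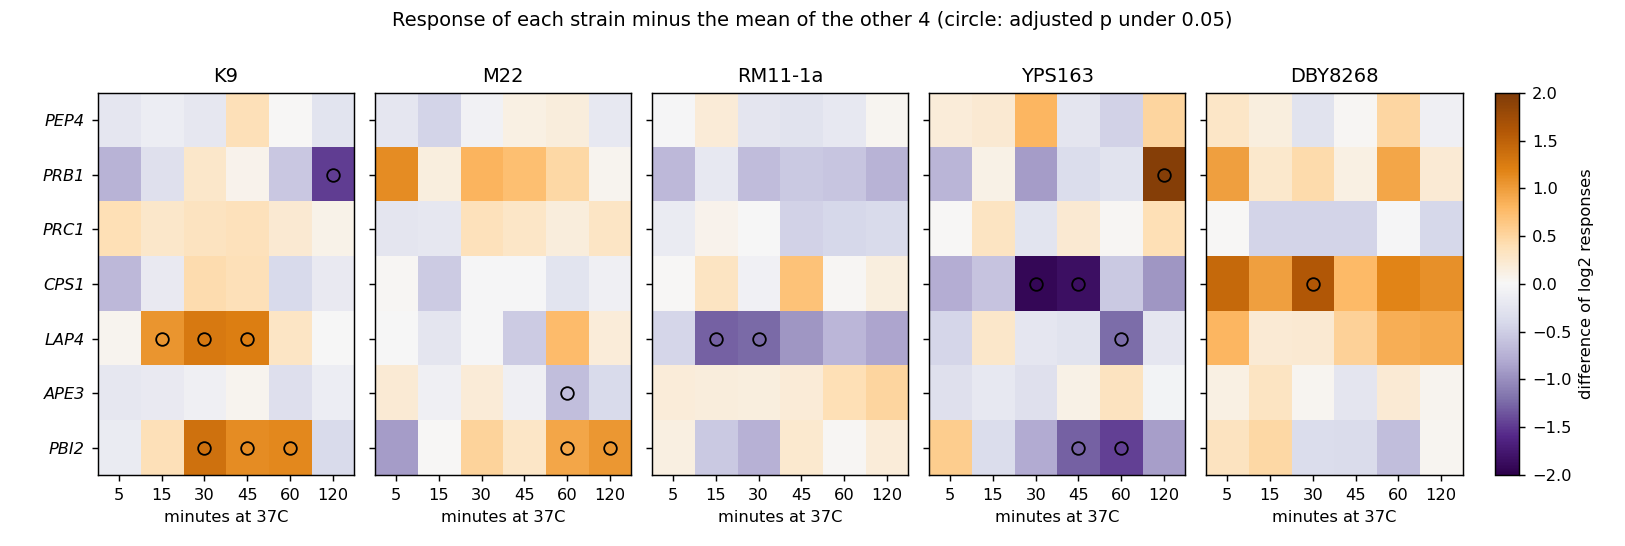
Difference between the log2 response of each strain and the mean response of the other 4 (colour, from −2 in purple to 2 in orange) for 7 genes (down the page) at 6 times (across each panel), 1 panel per strain; circles mark an adjusted p under 0.05. The strongest circled cells are PRB1 in YPS163 at 120 min, at 1.95, and CPS1 in YPS163 at 30 min, at −1.92. The PRB1 call was kept in all 21 alternatives, whereas the CPS1 cell rests on 1 YPS163 array and its call was lost in 12 of 20.

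Within a series, the change between times can be taken against the same 25C RNA. From 5 to 15 min 6 of 7 genes gained, a call made for 20% of all genes, led by LAP4 with 1.61 (SE 0.13) and PBI2 with 1.33 (SE 0.09). From 15 to 30 min 2 of 8 were called lower (14.7% of all genes), PRB1 by −1.09 (SE 0.14) and PBI2 by −0.64 (SE 0.10). From 30 to 60 min 6 of 8 were called lower (24.5%), all but CPS1 and PAI3, with LAP4 at −1.64 (SE 0.13) and PEP4 at −1.26 (SE 0.13). From 60 to 120 min 3 of 8 were called higher (7.14%), PRB1 by 0.81, PEP4 by 0.39 and LAP4 by 0.37 (SE 0.07, 0.07 and 0.09). The PEP4 change was 1.19 in YPS163 and between −0.07 and 0.60 in the other strains, and that of LAP4 was 1.23 in YPS163 and between −0.07 and 0.45 in the others, and neither difference between strains was called (F test, adjusted p = 0.0737 and 0.123). The LAP4 call was lost in 8 of 12 alternatives and the PEP4 call in 4 of 12. The YPS163 changes from 60 to 120 min also crossed array code prefixes, as given above. Without series 2 of DBY8268, M22 or RM11-1a the count from 60 to 120 min was 1, and without YPS163 series 1 it was 5. The count from 15 to 30 min was 4 without RM11-1a series 1. Over the whole span from 15 to 120 min 6 of 8 were called lower (26.5%), again all but CPS1 and PAI3.

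Before any heat, CPS1 was the member that differed most between strains. At 25C its log2 ratio to DBY8268 was 0.96 and 1.82 in K9, 1.53 and 0.58 in M22, 2.27 and 2.56 in RM11-1a and −0.38 and −0.99 in YPS163. All arrays of K9, M22 and RM11-1a were above 0 and both of YPS163 below it. The mean ratio was 2.42 in RM11-1a (5.33-fold, SE 0.30, adjusted p = 0.00198), 1.39 in K9 (SE 0.30, adjusted p = 0.0237) and 1.06 in M22 (SE 0.30, adjusted p = 0.0435), and it was −0.68 in YPS163 (SE 0.30, adjusted p = 0.148). The 4 strains differed among themselves (F test, adjusted p = 0.0173). The RM11-1a value stayed called in all 12 alternatives, from 2.15 to 2.68. The K9 value was 0.75 (adjusted p = 0.431) without its replicate 2, and the M22 value 0.49 (adjusted p = 0.474) without its replicate 1. The M22 call was lost in 4 of 12 alternatives.

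DBY8268 thus had a CPS1 level below those of 3 strains at 25C and the highest CPS1 responses at 5 and 15 min. Adding the ratio at 25C to the difference of the responses gave, for 15 min, 0.47 in K9 over DBY8268, −0.14 in M22 (SE 0.64 and 0.63), 1.89 in RM11-1a (SE 0.63) and −1.94 in YPS163 (SE 0.75). These sums join arrays of 2 experiments and were not tested.

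PRB1 stood at 1.18 and 0.59 in RM11-1a at 25C, with a mean of 0.89 (SE 0.16, adjusted p = 0.0116), at 0.67 and 0.53 in K9, at −0.11 and −0.40 in M22 and at −0.52 and −0.46 in YPS163. RM11-1a and K9 were above 0 and M22 and YPS163 below it on every array, and the 4 strains differed (F test, adjusted p = 0.0214). LAP4 was higher in RM11-1a, at 1.60 and 1.10 (mean 1.35, SE 0.27, adjusted p = 0.0171). With the difference of the responses added, LAP4 in RM11-1a over DBY8268 was 0.155 at 15 min and 0.175 at 30 min (SE 0.47 each). These sums were not tested either. PRC1 was lower in M22, at −1.33 and −0.56 (mean −0.94, adjusted p = 0.0304), and in YPS163, at −1.54 and −0.32 (mean −0.93, adjusted p = 0.0343). The M22 call was lost in 4 of 12 alternatives and the YPS163 call in 5 of 12, where the YPS163 value ranged from −1.35 to −0.51. APE3 was lower in YPS163, at −0.62 and −0.44 (mean −0.53, SE 0.15, adjusted p = 0.0483), a call lost in 10 of 12 alternatives (adjusted p up to 0.512). Without replicate 1 of the strain concerned, the RM11-1a values of LAP4 and PRB1 were 0.76 and 0.65 and were not called.

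Relative to DBY8268 at 25C, 1 of 8 genes was called higher in K9 (7.86% of 5306 genes), 1 higher and 1 lower in M22 (10.2% and 13%), 3 higher in RM11-1a (7.75%) and 2 lower in YPS163 (12.7%). Differences among the 4 strains were called for 2 of 8 genes, against 10.8% of all genes. The K9 count was 0 without its replicate 2 and 2 without either RM11-1a replicate. The M22 count, both directions together, was 0 without its replicate 1 and 1 without its replicate 2 or either RM11-1a replicate. The RM11-1a count was 1 without its replicate 1. The YPS163 count was 0 without its replicate 1 or either K9 replicate, and 1 without its replicate 2 or either M22 replicate. The count of differences among the strains was 1 without replicate 1 of RM11-1a or of YPS163. PAI3 varied least, with all 8 arrays between −0.51 and 0.06, and no strain was called for PEP4, PAI3 or PBI2. On the mean of the 4 strains CPS1 was higher by 1.04 (SE 0.15, adjusted p = 0.00172; 18.7% of all genes were called higher), and PRC1 was lower by −0.57 (adjusted p = 0.00888; 22.1% were called lower).

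**Figure D4:**
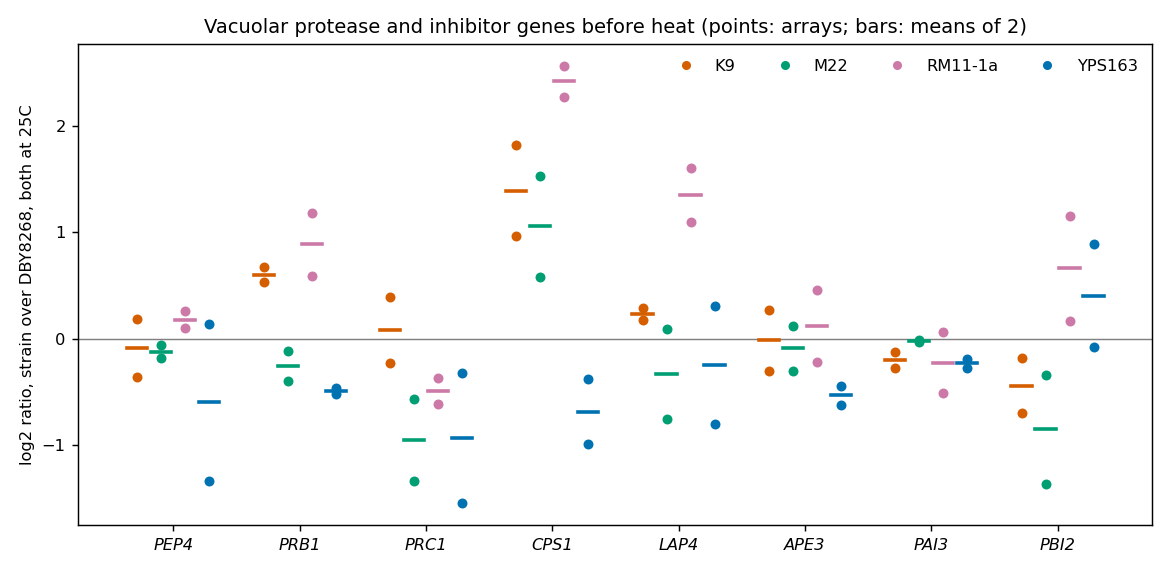
Log2 ratio of each strain's RNA over that of DBY8268, both at 25C (vertical axis), for the 8 genes (horizontal axis); points are arrays and bars the mean of 2 in K9, M22, RM11-1a and YPS163. CPS1 spreads most, from −0.99 in YPS163 to 2.56 in RM11-1a, and the PAI3 points all lie between −0.51 and 0.06.

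Each inhibitor was set against the enzyme it binds on the same array, as a difference of responses and not of levels. At 45 min PBI2 exceeded PRB1 on all 9 arrays, by 0.75 to 2.62 with a mean of 1.43 ± 0.66 (SD, n = 9; exact two-sided sign-flip permutation p = 0.00391, the smallest this n allows, adjusted p = 0.0234 over 12 tests). At 30 min it exceeded PRB1 on 9 of 10 arrays, by 0.75 ± 0.56 (SD, n = 10; exact permutation, adjusted p = 0.0234). At 5 min the difference was −0.49 ± 1.06 and ran from −2.30 to 0.61, with M22 at −2.30 and −1.87, and it was not called (exact permutation, adjusted p = 0.245). With 1 value per strain the smallest p of that test is above the threshold, and neither call could be made.

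The PBI2 to PRB1 difference took opposite signs at 120 min. It was 0.89 and 1.79 in K9 and 1.02 and 1.67 in M22, and 0.78 and 1.77 in RM11-1a. In YPS163 it was −1.90 and −1.52, and in DBY8268 it was −0.01 and 0.84. YPS163 was thus the strain with both arrays below 0, and the mean over the 10 arrays was 0.53 ± 1.31 (exact permutation, adjusted p = 0.255). At 60 min both DBY8268 arrays were below 0, at −0.20 and −0.23. For PAI3 and PEP4 no time was called, the differences running from a mean of −0.86 at 30 min to 0.25 at 60 min (exact permutation, adjusted p between 0.131 and 0.416).

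**Figure D5:**
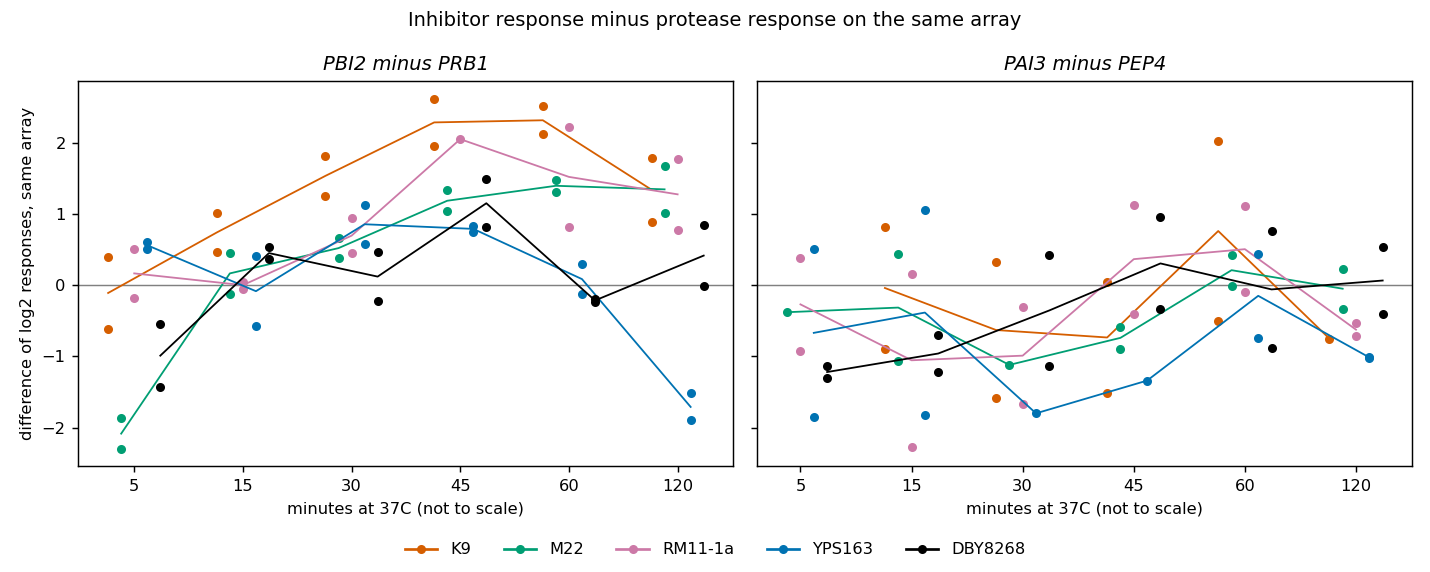
Difference between the log2 responses of inhibitor and protease on the same array (vertical axis) at 6 times (horizontal axis, not to scale), for PBI2 minus PRB1 (left) and PAI3 minus PEP4 (right); points are arrays and lines join strain means. At 45 min all PBI2 minus PRB1 points lie above 0, and at 120 min both YPS163 points lie below it.

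The other lists of vacuolar genes are given for 15 min, when 38.1% of all genes were called higher and 39.9% lower. Of 12 further vacuolar hydrolases, 7 could be tested, of which 5 were called higher and 0 lower, with a median of 0.63. They included YSP3, a putative subtilisin-type protease related to PRB1, at 1.35 (SE 0.06), APE4, a cytoplasmic aminopeptidase carried to the vacuole, at 0.85 (SE 0.10), the alkaline phosphatase gene PHO8 at 0.63 (SE 0.10), and the polyphosphatase gene PPN1 at 0.40 (SE 0.08). Of 15 V-ATPase genes, whose pump acidifies the vacuole, 14 were tested, 1 was called higher and 9 lower, with a median of −0.48. The subunit genes VMA11 and VMA6 fell by 0.85 and 0.75 and VMA1 by 0.23, and STV1, the subunit isoform of the Golgi and endosomes, rose by 0.30 (SE 0.09). Of 19 genes of vacuolar sorting and delivery, 17 were tested, 9 were called higher and 1 lower, with a median of 0.23. PEP12, the endosomal syntaxin gene, rose by 1.71 (SE 0.13) and ATG19, the receptor gene for the LAP4 product, by 0.92 (SE 0.13), while APS3 rose by 0.23 and APM3, also of the AP-3 adaptor, fell by 0.23.

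The members resembled each other unevenly. Over the 30 strain and time means, which share arrays and 25C references, Pearson's r was highest between PEP4 and LAP4 (0.77) and between LAP4 and PBI2 (0.69), and lowest between PRC1 and CPS1 (−0.13). Among the other 4353 genes with a value in every group, those most like each member were YBR053C (r = 0.87) and TFS1 (0.85) for PEP4, ECM21 (0.92) and HUA1 (0.91) for PRB1, and DOT5 (0.81) and PPX1 (0.80) for PRC1. TFS1 is known as an inhibitor of carboxypeptidase Y, the PRC1 product. They were OPY2 (0.76) and BNA1 (0.69) for CPS1, ATG33 (0.92) and PYC1 (0.88) for LAP4, SSC1 (0.86) and AHA1 (0.80) for APE3, and GRX1 (0.85) and NNR1 (0.84) for PBI2.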

How the data were processed

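The values analysed were the log2 ratios that the authors deposited, 1 per reading frame and array, with missing spots empty. Per the labels' protocols, total RNA was extracted with hot phenol and labelled indirectly with cyanine dyes. The software, log base, normalization and centring are not given in the sources used here, and base 2 was assumed. The medians of the heat arrays ran from −0.17 to 0.28. The deposited ratios of dye-swapped replicates correlated positively, so no sign was changed. Symbols came from RefSeq (assembly R64), in which 5832 of 6297 reading frames were found.

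Each gene was fitted by least squares with 30 strain and time means and a dye term, and variances were moderated with limma 3.58.1 in R 4.3.3. Genes needed a value in each of the 30 groups (4360 genes), or on 6 of 8 arrays and in every strain at 25C (5306 genes). Adjusted p-values are Benjamini-Hochberg over all genes tested, per contrast. K9 means are dye-adjusted. The procedure was tested on simulated data. Changes between times were fitted on differences within series, which the labels pair through their shared 25C RNA. As a check, deviations of the same series from its group means correlated between times, with strain medians of 0.30 to 0.53.

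The genes named were all members, the 2 genes most like each by Pearson's r, and the 2 highest and 2 lowest called genes of each other list at 15 min. The members and lists were chosen with earlier results of these data known. Alternatives covered the dye term, centring, scaling, filters, single times, array code prefix, the series as a block, doubtful labels, K9 and each replicate.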

Additional observations from a re-analysis of the deposited data

Results flagged for a closer look

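Responses that differed between strains are listed here by their F test (limma, adjusted over all genes). PRB1 differed at 5 min (adjusted p = 0.0113), 30 min (0.0309) and 120 min (0.000176), and in its changes from 60 to 120 min (0.014) and from 15 to 120 min (0.0359), the last of these lost in 8 of 12 alternatives. LAP4 differed at 15, 30, 45 and 60 min (0.00597, 0.00274, 0.00644 and 0.00279), and none of these was called with neither a dye term nor a series block. CPS1 differed at 30 min (0.0216). PBI2 differed at 30, 45, 60 and 120 min (0.00319, 0.00737, 0.000687 and 0.0447). At 25C the 4 strains compared with DBY8268 differed for PRB1 (0.0214) and CPS1 (0.0173).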

How the results depend on the processing

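No direction turned under any alternative run where the result was called with the main or the alternative setting. A change of sign in a result called with neither was not recorded. The number of genes with a strain difference was the count that moved most. It became 0 at 5 min, 2 at 15 min and 2 at 30 min with the arrays of each time scaled to 1 spread, 0 at 5, 15, 30 and 45 min and 1 at 120 min with each time fitted alone, and 0 at 15 min and 1 at 45 and 60 min without the dye term. It was 0, 2 and 1 at 15, 30 and 45 min with the array code prefix as a covariate, and 0, 2, 0 and 1 at 15, 30, 45 and 120 min without K9. At 120 min it was also 1 with no gene filter, without the 3 arrays of another 25C label and without the technical repeat. With the replicate block, each series paired through its 25C RNA, it was 3 at 5 min, 4 at 45 min and 6 at 60 min, and the block changed no calls of the members beside those given with the results above. Shares over all genes are not given for these settings, so the counts cannot be set against those of the main fit. Leaving out 1 array series at a time gave 0 to 2 genes at 5 and 15 min, 2 to 5 at 30 min, 1 to 4 at 45 and 60 min and 1 to 3 at 120 min. Genes lower on the mean numbered 0 to 1 at 45, 60 and 120 min, 0 arising where APE3 lost its K9 values or, at 45 min, without DBY8268 series 2. Genes higher on the mean numbered 4 to 5, 5 to 6, 4 to 6, 4 to 5, 3 to 5 and 4 to 5.

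At 25C, scaling gave 2 called genes in K9, 0 in M22 and 1 in YPS163. Without the dye term, which there is also without the replicate block, M22 had 1 and YPS163 0. Centring or no gene filter left 1 in YPS163. Leaving out replicates gave 0 to 2 called genes for K9, 0 to 3 for M22, 1 to 4 for RM11-1a, 0 to 3 for YPS163 and 1 to 2 differing among the 4. Along the course, genes lower at 120 than at 15 min numbered 5 to 8, lower at 30 than at 15 min 2 to 4, and higher at 120 than at 60 min 1 to 5. Centring gave 4 genes lower at 30 than at 15 min. With strain means in place of series, PBI2 minus PRB1 was 0.745 at 30 min and 1.49 at 45 min (exact permutation, adjusted p = 0.188, at n = 5). Causes of these shifts were not tested, beyond the fewer arrays that some settings hold. With 2 arrays per strain and time, and missing values for CPS1, LAP4 and PAI3, single-strain values rest on few spots.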
